A study of Mus musculus with 9 samples.

Results

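The genes described here are 31 mouse genes of the endoplasmic reticulum (ER) that fold new secretory and membrane proteins, sense misfolded ones or remove them. The members were a list of named genes, and every array probe whose RefSeq identifier mapped to 1 of those names was taken. At least 1 probe was matched for 29 of the 31 genes. Pdia3 and Dnajb11 matched no probe and were not analysed here. All 29 matched genes were read well above background on all 9 arrays, and all were tested among 14063 genes with a measurable signal.

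RNA came from cortical neurons of C57bl/6 mouse embryos of embryonic day 15, kept in culture for 12 days. There were 3 control arrays without treatment, 3 arrays of neurons given 25 µM bicuculline for 6 h and 3 arrays of neurons given 50 mM potassium chloride (KCl) for 6 h. Bicuculline blocks GABA-A receptors and so releases network firing, and raised extracellular potassium depolarises the membrane directly. Each RNA was read by 1-colour hybridisation to an Agilent whole mouse genome array. The labels give a replicate number for each array, but no source used here says whether the replicates came from separate cultures or litters. The p-values below therefore measure only how far these arrays scatter, and that scatter may be technical. The cultures were dissociated embryonic tissue and no sort of the cells is given, so an array reads all cells in the dish. Fewer cells of a type and less RNA per cell cannot be told apart in such samples.

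Proteins bound for the cell surface, for vesicles or for secretion enter the ER through the translocon, where HSP70-type chaperones, lectin chaperones and disulphide isomerases fold them. Chains that fail to fold are drawn back through the membrane and destroyed by the proteasome, a route called ER-associated degradation. When unfolded chains build up, the sensors IRE1, PERK and ATF6 start the unfolded protein response, in which the transcription factors ATF6 and XBP1 raise chaperone and degradation genes. Neurons carry large amounts of membrane and secretory cargo, such as receptors, channels and neuropeptides, through this system.

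Promoters of classic unfolded protein response genes carry the ER stress response element (ERSE), the letters CCAAT, 9 further bases and CCACG, at which ATF6 acts together with the CCAAT-binding factor NF-Y. A second form, ERSE-II, has the letters ATTGG, 1 base and CCACG. Promoter windows of 300 bases, from 250 before to 50 after the gene start, were read on both strands from RefSeq (build GRCm38.p6), which held an entry for 27 of the 31 members. Hyou1, Manf, Derl1 and Atf6 had no entry. An exact ERSE was present in 9 of the 27 members (33.33%) against 39 of all 32851 windows of the table (0.1187%). An exact ERSE-II was present in 2 of the 27 members (7.407%) against 12 of the 32851 windows (0.03653%). A match is a description of the letters, not evidence of a site in use, and only exact letters within this window were counted. The matches are printed because they mark the members with the textbook stress element. All are written 5′ to 3′ from CCAAT or ATTGG to CCACG, with the fixed letters in capitals:
Hspa5: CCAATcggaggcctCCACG
Hsp90b1 upstream copy: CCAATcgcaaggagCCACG
Hsp90b1 downstream copy: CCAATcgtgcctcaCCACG
Dnajc3: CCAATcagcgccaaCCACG
Creld2: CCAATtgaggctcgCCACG
Calr: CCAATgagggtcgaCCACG
Canx: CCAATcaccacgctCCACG
Pdia6: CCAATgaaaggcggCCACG
Syvn1: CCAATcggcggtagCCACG
Derl3: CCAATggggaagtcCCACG
Herpud1: ATTGGgCCACG
Dnajb11: ATTGGcCCACG

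The element of Hspa5 was centred 56 bases before the gene start, and that of Herpud1 47 bases before it. The only element after the gene start was that of Dnajb11, centred 12 bases into the transcribed part. No member window held the XBP1 and ATF6 element in the exact form TGACGTGG, which was in 0.6758% of all windows. None held the cAMP response element TGACGTCA, which was in 1.79% of them. At shares this low, an absence from so few windows tells little. The near form TGACGTGA, which is in the Hspa5 window below, was not searched. Whole windows are given for 3 members that differ in element and in the results below: Hspa5 at chr2:34771840-34772139 (plus strand) has an ERSE, Herpud1 at chr8:94386179-94386478 (plus strand) has an ERSE-II, and Sdf2l1 at chr16:17132334-17132633 (minus strand) has neither and is the member raised most by bicuculline. Capitals mark the matched element, and each is written in the direction of the gene:
Hspa5: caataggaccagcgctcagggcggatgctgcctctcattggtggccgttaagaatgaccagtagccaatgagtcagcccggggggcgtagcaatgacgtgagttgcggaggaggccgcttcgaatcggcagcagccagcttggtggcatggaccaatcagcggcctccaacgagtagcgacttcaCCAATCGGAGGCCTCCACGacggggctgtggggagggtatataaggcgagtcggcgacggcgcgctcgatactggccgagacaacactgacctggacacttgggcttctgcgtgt
Herpud1: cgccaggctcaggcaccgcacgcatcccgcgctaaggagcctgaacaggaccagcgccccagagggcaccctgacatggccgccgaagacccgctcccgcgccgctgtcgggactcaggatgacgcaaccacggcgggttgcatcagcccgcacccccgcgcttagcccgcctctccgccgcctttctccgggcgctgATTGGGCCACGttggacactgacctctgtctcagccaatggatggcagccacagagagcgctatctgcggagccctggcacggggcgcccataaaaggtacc
Sdf2l1: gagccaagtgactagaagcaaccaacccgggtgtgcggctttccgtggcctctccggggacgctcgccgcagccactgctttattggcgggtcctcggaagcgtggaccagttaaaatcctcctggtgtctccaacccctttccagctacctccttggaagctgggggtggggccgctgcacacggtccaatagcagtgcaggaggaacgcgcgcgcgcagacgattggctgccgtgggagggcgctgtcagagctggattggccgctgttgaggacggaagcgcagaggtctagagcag

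Signals are given below as relative signals, the probe's processed signal divided by the 75th percentile of the same array. That percentile ran from 1586 to 3087 units of intensity, 65.0% to 75.9% of spots were well above background, and no spot was saturated. The median SD between replicate arrays was 0.05 on the log2 scale. The neuronal label was borne out by Map2 and Tubb3, cytoskeletal genes of neurons with mean control relative signals of 15.9 and 26.4, and by the synaptic gene Snap25 at 3.03. The astrocyte gene Gfap was also read, at 7.26. Fos, the immediate early gene used to mark neuronal activity, changed by 2.76 on the log2 scale under bicuculline and by 4.47 under KCl. Marker genes of other cells moved with both treatments. Summed over 14 markers of endothelial, mural and fibroblast cells, the relative signal was 26.4 to 27.6 on control arrays, 26.0 to 28.5 on bicuculline arrays and 45.4 to 50.0 on KCl arrays, with 7 of the 10 tested markers higher under KCl and 1 lower. Pecam1 and Cdh5, which define endothelial cells, were not well above background on any array. Microglial markers summed to 3.53 to 3.72, 2.89 to 4.37 and 4.27 to 6.33 on control, bicuculline and KCl arrays, with 5 of 8 tested markers higher under KCl. The sum for 10 oligodendrocyte lineage markers was 32.7 to 34.0, 31.3 to 32.6 and 37.3 to 37.9, with 7 of 9 higher and 2 lower under KCl, and Mog was not above background on any array. Astrocyte markers summed to 129 to 142, 129 to 132 and 148 to 156, with 4 of 10 higher and 3 lower under KCl. Progenitor and cell cycle markers summed to 75.6 to 83.8, 75.9 to 85.1 and 94.9 to 106, with 4 of 10 higher and 6 lower. Neuronal markers summed to 169 to 179, 194 to 204 and 202 to 209, with 7 of 12 higher and 2 lower. Under bicuculline, 5 of 10 astrocyte, 5 of 9 oligodendrocyte lineage and 5 of 10 progenitor and cell cycle markers were lower, and at most 1 in each list was higher. Of the neuronal markers 3 were higher and 4 lower, 2 of 10 endothelial, mural and fibroblast markers were lower, and no microglial marker passed. The part of these shifts in the ER results was not tested.

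The question for each treatment was which ER genes moved after 6 h. Under bicuculline, 9 of the 29 members were higher than control and 4 were lower (limma, adjusted p under 0.05 over all 14063 genes), and 16 did not pass. Of all genes tested, 17.4% were higher and 27.0% lower. The median log2 change was 0.06 over the members and -0.03 over all genes. Under KCl, 19 members were higher, 4 lower and 6 did not pass, against 35.8% of all genes higher and 36.0% lower. Their median change was 0.19 against 0.02 over all genes. Changes of at least 0.5 on the log2 scale were fewer. Bicuculline moved Sdf2l1 and Atf6 by that much upward and no member downward, where 5.23% and 3.93% of all genes moved so far up and down. Under KCl 8 members rose that far and none fell so far, where the shares of all genes were 15.7% and 14.2%. The 3 arrays of a treatment lay wholly above the 3 control arrays for 13 members under bicuculline and wholly below for 6, against 22.1% and 34.8% of all genes. Under KCl they lay above for 21 and below for 5, against 37.2% and 37.6% of all genes. Both comparisons use the same 3 control arrays, so their values stand side by side and are not independent.

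**Figure D1:**
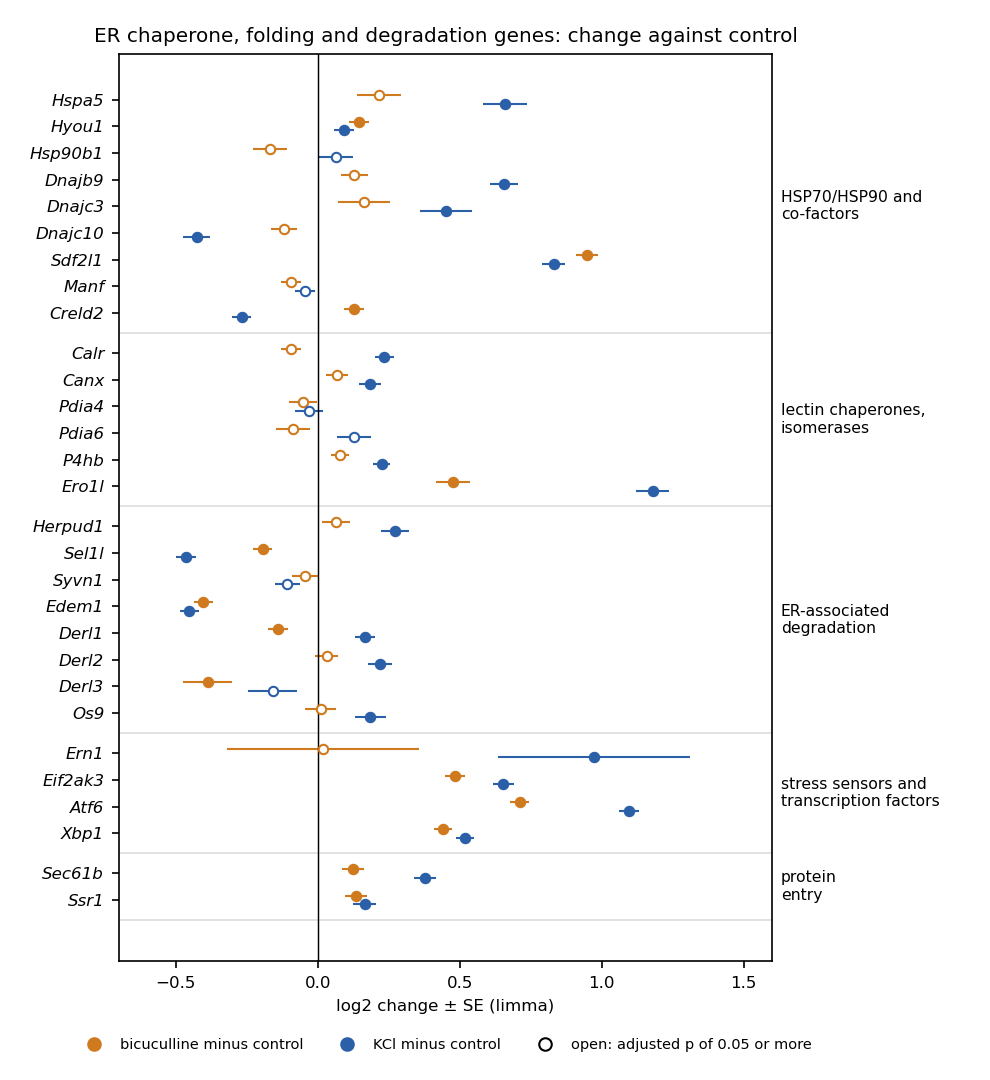
Log2 change against control (x axis, limma estimate ± SE, 3 arrays a group) of the 29 measured members, grouped by role, with bicuculline in orange and KCl in blue. Filled points passed at an adjusted p under 0.05. The stress sensors and Ero1l lie to the right under both treatments except Ern1 under bicuculline, and Sel1l and Edem1 lie to the left under both. The KCl change turned negative under at least 1 other scaling for Hyou1, Canx, Derl1 and Ssr1 and under all 5 for Hsp90b1 and Pdia6, and that of Derl3 turned positive under 1.

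By the median of the group, the stress sensors and their transcription factors changed most under both treatments, although the largest single changes were in other groups (Sdf2l1 and Ero1l). Of the 4 sensor genes, 3 were higher under bicuculline and 4 under KCl, with median log2 changes of 0.46 and 0.81. Counts by role, here and below, stand beside 17.4% higher and 27.0% lower of all genes under bicuculline, and 35.8% and 36.0% under KCl. Atf6 encodes the membrane-bound sensor that is cut in the Golgi to free a transcription factor. Its relative signal was 0.918, 0.958 and 0.935 on control arrays 1 to 3, 1.56, 1.49 and 1.56 on arrays of bicuculline-treated neurons, and 2.04, 2.02 and 1.95 on those given KCl. The 3 groups did not overlap and stood in the order control, bicuculline, KCl. Atf6 was thus 1.64-fold higher under bicuculline (log2 change 0.71 ± 0.03 SE, n = 3 arrays a group, adjusted p = 2.78e-06) and 2.14-fold higher under KCl (1.095 ± 0.034, adjusted p = 9.24e-08). A second Atf6 probe gave 0.68 and 0.94.

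Eif2ak3 encodes PERK, the kinase that slows translation by phosphorylating eIF2α. Control arrays read 0.845, 0.907 and 0.880, bicuculline arrays 1.26, 1.20 and 1.22, and KCl arrays 1.37, 1.39 and 1.38. Every treated array was above every control array, and the KCl arrays were above the bicuculline arrays by less than the treated arrays were above control. The log2 change was 0.48 ± 0.04 under bicuculline (adjusted p = 2.51e-05) and 0.65 ± 0.04 under KCl (adjusted p = 1.42e-06).

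Xbp1 encodes the transcription factor whose mRNA is spliced by IRE1, and how far its probe tells the spliced from the unspliced form was not tested. Its relative signal was 3.18, 3.21 and 3.03 on control arrays, 4.21, 4.28 and 4.29 on bicuculline arrays, and 4.54, 4.43 and 4.52 on KCl arrays. Both treatments stood apart from control. Xbp1 rose by 0.44 ± 0.03 on the log2 scale under bicuculline (adjusted p = 1.96e-05) and by 0.52 ± 0.03 under KCl (adjusted p = 2.28e-06). The bicuculline call was lost with normexp and 75th percentile scaling (adjusted p = 0.111) and kept under the 4 other scalings.

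Ern1 encodes IRE1 itself and was among the dimmest members. Control arrays read 0.0410, 0.0486 and 0.103, bicuculline arrays 0.0505, 0.0515 and 0.0820, and KCl arrays 0.125, 0.113 and 0.110. The KCl arrays were above all others, but control 3 and bicuculline 3 lay close to them and far above the other arrays of their groups. Those 2 arrays shared slide 2 with KCl 1 and KCl 2, while the other control and bicuculline arrays were on slide 1. The KCl change was 0.97 ± 0.34 (adjusted p = 0.0312) and the bicuculline change 0.02 ± 0.34 (adjusted p = 0.971). With slide as a block the KCl change was 0.39 (adjusted p = 0.083), and within slide 2 it was 0.21. The call was also lost without control replicate 1 or 2 or without any 1 of the 3 KCl replicates (adjusted p from 0.060 to 0.101). Whether the slide made the difference was not tested.

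**Figure D2:**
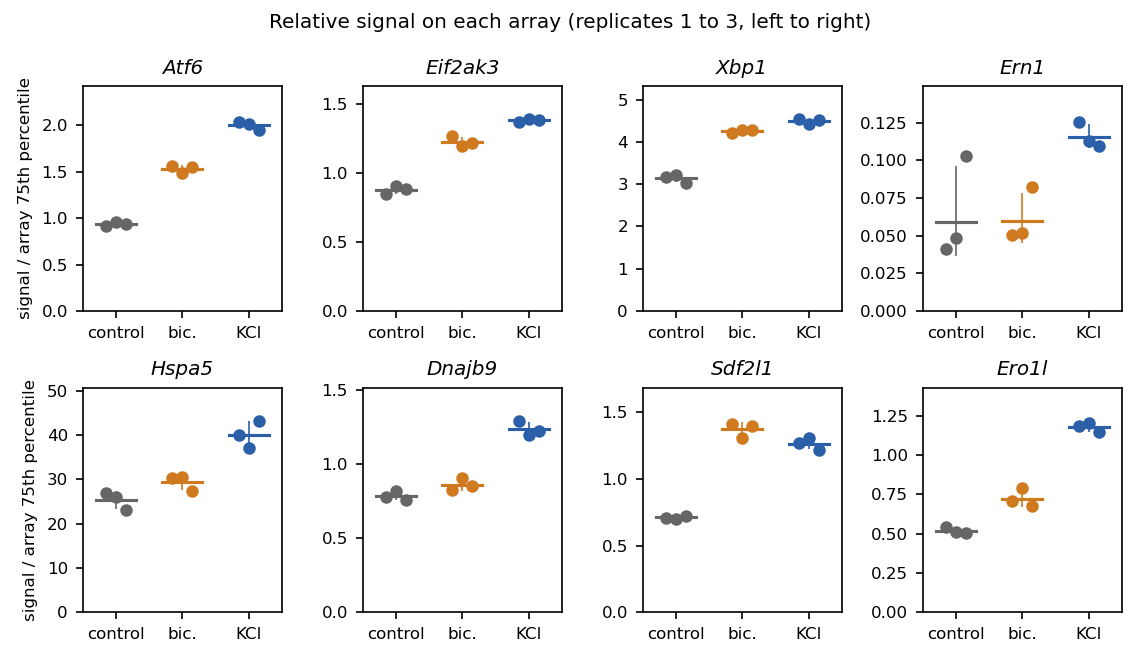
Relative signal (processed signal divided by the array's 75th percentile, linear y axis from 0) of 8 members on each array, replicates 1 to 3 from left to right, with the geometric mean of the group as a bar and ± 1 SD of the log2 values as a line. Atf6 and Ero1l separate the 3 groups in the order control, bicuculline, KCl. Control replicate 3 and bicuculline replicate 3 stand apart from their groups for Ern1.

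The HSP70 and HSP90 chaperones and their co-factors did not move as 1 group. Of the 9 measured, 3 rose under bicuculline and none fell, and 5 rose and 2 fell under KCl, with median log2 changes of 0.13 and 0.09. Hspa5, or BiP, is the main HSP70 chaperone of the ER and holds the 3 sensors inactive. Its relative signal was 26.9, 26.0 and 23.1 on control arrays, 30.2, 30.5 and 27.5 on bicuculline arrays, and 39.9, 37.1 and 43.1 on KCl arrays. The 3 groups did not overlap. Hspa5 rose 1.58-fold under KCl (log2 change 0.66 ± 0.08, adjusted p = 0.000112). The bicuculline change of 0.22 ± 0.08 did not pass (adjusted p = 0.0551), nor did it in 15 of 24 other settings. It passed in the rest, among them slide as a block, normexp with quantile normalization and some fits with 1 array left out. With replicate numbers as a block it passed within the 6 arrays compared (adjusted p = 0.0113) but not in all 9 arrays (adjusted p = 0.088). With normexp correction and 75th percentile scaling the KCl call was lost too (adjusted p = 0.079).

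Sdf2l1, a partner of the BiP cycle that keeps unfolded chains from clumping, was the member most raised by bicuculline. Control arrays read 0.709, 0.702 and 0.722, bicuculline arrays 1.41, 1.31 and 1.40, and KCl arrays 1.27, 1.31 and 1.22. Both treatments were well above control, and the bicuculline arrays were slightly above the KCl arrays. The log2 change was 0.95 ± 0.04 under bicuculline (1.93-fold, adjusted p = 1.39e-06) and 0.83 ± 0.04 under KCl (1.78-fold, adjusted p = 7.08e-07).

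The J proteins, which hand clients to BiP and drive its ATPase, went different ways. Dnajb9 (ERdj4) read 0.777, 0.817 and 0.758 on control arrays, 0.824, 0.902 and 0.848 on bicuculline arrays, and 1.29, 1.20 and 1.22 on KCl arrays. Only the KCl arrays stood far from control. The KCl change was 0.66 ± 0.05 (adjusted p = 7.62e-06) and the bicuculline change 0.13 ± 0.05 (adjusted p = 0.0632, or 0.0393 with the replicate block in the 6 arrays). Dnajc3 (p58IPK), a co-chaperone that also inhibits PERK, rose by 0.45 ± 0.09 under KCl (adjusted p = 0.00234), a call lost under spike-in scaling (adjusted p = 0.091) and with normexp and 75th percentile scaling (0.063), and gave 0.16 ± 0.09 under bicuculline (adjusted p = 0.188). Dnajc10 (ERdj5), the J protein that reduces disulphides, fell. It read 5.19, 5.52 and 5.06 on control arrays, 5.07, 4.84 and 4.62 on bicuculline arrays, and 3.97, 3.86 and 3.90 on KCl arrays. Bicuculline and control arrays overlapped, and KCl arrays were below both. Its KCl change was -0.43 ± 0.05 (adjusted p = 6.59e-05), and all 4 of its probes fell under KCl.

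The remaining chaperone genes changed little. Creld2, an ER-stress gene with disulphide isomerase activity, read 5.01, 4.88 and 4.97 on control arrays, 5.59, 5.39 and 5.25 on bicuculline arrays, and 3.99, 4.14 and 4.21 on KCl arrays. The 3 groups did not overlap, and the passing changes had opposite signs in the 2 treatments. They were 0.13 ± 0.03 under bicuculline (adjusted p = 0.0194) and -0.27 ± 0.03 under KCl (adjusted p = 0.000207). The brightest probe of Derl1 also fell under bicuculline and rose under KCl, but its other probes rose under bicuculline. The bicuculline call on Creld2 was lost without control replicate 2 (adjusted p = 0.059), control replicate 3 (0.053) or bicuculline replicate 1 (0.062), and under median scaling, spike-in scaling and both normexp settings. Hyou1, the HSP110-type exchange factor of BiP, changed by 0.14 ± 0.03 under bicuculline (adjusted p = 0.0108) and by 0.09 ± 0.03 under KCl (adjusted p = 0.0398). The KCl value was no longer called without any 1 of 6 arrays, the 3 controls, KCl 1 and 3 and bicuculline 3 (adjusted p from 0.055 to 0.114), and it turned to -0.07 with median scaling, -0.09 with spike-in scaling and -0.05 with normexp and 75th percentile scaling. Hsp90b1 (GRP94), the HSP90 of the ER, gave -0.17 ± 0.06 (adjusted p = 0.0503) and 0.07 ± 0.06 (adjusted p = 0.342), and its KCl value was negative under all 5 other scalings (-0.18 to -0.078). Manf, a secreted ER-stress protein with trophic action on neurons, gave -0.09 ± 0.04 (adjusted p = 0.069) and -0.04 ± 0.04 (adjusted p = 0.292).

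Among the lectin chaperones and disulphide isomerases, 1 of 6 measured genes rose under bicuculline and 4 under KCl, and none fell. Ero1l (Ero1a in RefSeq), the oxidase that recharges protein disulphide isomerase, rose most of all members under KCl. Control arrays read 0.544, 0.510 and 0.507, bicuculline arrays 0.707, 0.790 and 0.678, and KCl arrays 1.19, 1.20 and 1.14. The groups did not overlap. Ero1l was 1.39-fold higher under bicuculline (log2 change 0.48 ± 0.06, adjusted p = 0.000411) and 2.26-fold higher under KCl (1.18 ± 0.06, adjusted p = 9.02e-07). Its second probe gave 0.29 under both treatments, with adjusted p = 0.0596 under bicuculline and 0.0425 under KCl, so the size of the change depends on the probe.

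The enzymes and lectins that Ero1l works beside moved less. The changes under KCl were 0.23 ± 0.03 for Calr (calreticulin, the soluble lectin chaperone; adjusted p = 0.00041), 0.18 ± 0.04 for Canx (calnexin, its membrane-bound relative; adjusted p = 0.00329) and 0.23 ± 0.03 for P4hb (protein disulphide isomerase; adjusted p = 0.000292). The call on Calr was lost under all 5 other scalings (log2 changes of 0.052 to 0.075), and that on P4hb under median scaling, spike-in scaling and normexp with 75th percentile scaling. The call on Canx was lost under median and spike-in scaling, and its sign turned under quantile normalization (-0.06) and both normexp settings (-0.08 and -0.11). Under bicuculline these genes gave -0.09 ± 0.03, 0.07 ± 0.04 and 0.08 ± 0.03, and none passed. The isomerases Pdia4 and Pdia6 passed under neither treatment, with changes of -0.05 ± 0.05 and -0.09 ± 0.06 under bicuculline and -0.03 ± 0.05 and 0.13 ± 0.06 under KCl. The KCl value of Pdia6 was negative under all 5 other scalings (-0.11 to -0.030).

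In ER-associated degradation, read by the brightest probe of each gene, 4 of 8 members fell under bicuculline and none rose, and 4 rose and 2 fell under KCl. These counts depend on the probe. The other Derl1 probes passed as higher under bicuculline. Under KCl, Sel1l, Edem1, Derl1 and Derl2 each had another probe that passed in the opposite direction. Among all genes 27.0% were lower and 17.4% higher under bicuculline, and 36.0% lower and 35.8% higher under KCl. The median log2 changes of the 8 members were -0.09 and 0.03. Edem1, the lectin that passes misfolded glycoproteins on for degradation, read 1.44, 1.44 and 1.38 on control arrays, 1.08, 1.08 and 1.07 on bicuculline arrays, and 1.06, 1.05 and 1.00 on KCl arrays. All treated arrays were below all control arrays. Edem1 fell by 0.40 under bicuculline (SE 0.03, adjusted p = 4.44e-05) and by 0.45 under KCl (SE 0.03, adjusted p = 7.25e-06) on its brightest probe, whereas another of its 3 probes gave 0.0021 under bicuculline and 0.69 under KCl. With the mean of its probes neither call passed (adjusted p = 0.065 and 0.314).

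Sel1l, the adaptor that holds the ligase HRD1 to its substrates, read 1.07, 1.12 and 1.08 on control arrays, 0.928, 0.963 and 0.967 on bicuculline arrays, and 0.813, 0.775 and 0.782 on KCl arrays. The groups stood apart in falling order. Its log2 change was -0.19 ± 0.03 under bicuculline (adjusted p = 0.00251) and -0.46 ± 0.03 under KCl (adjusted p = 7.39e-06), while its second probe gave -0.04 and 0.46. The mean of both probes did not pass under KCl (adjusted p = 0.942). Syvn1, which encodes HRD1 itself, gave -0.04 ± 0.05 (adjusted p = 0.479) and -0.11 ± 0.05 (adjusted p = 0.0639), and 1 of its 2 probes was too dim to keep.

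The derlins, membrane proteins of the channel through which chains leave the ER, differed among themselves. On its brightest probe Derl1 changed by -0.14 ± 0.04 under bicuculline (adjusted p = 0.0136, or 0.054 without control replicate 3). Its KCl change was 0.17 ± 0.04 (adjusted p = 0.00321, turning to -0.02 with spike-in scaling). The other Derl1 probes gave 0.20, 0.16 and 0.11 under bicuculline, all passing as higher, and 0.32, 0.18 and -0.09 under KCl. The bicuculline call was also lost under median scaling, spike-in scaling and normexp with 75th percentile scaling. Derl2 gave 0.03 ± 0.04 (adjusted p = 0.597) and 0.22 ± 0.04 (adjusted p = 0.00178). Derl3, a dim member, read 0.0835, 0.0929 and 0.0906 on control arrays, 0.0691, 0.0670 and 0.0678 on bicuculline arrays, and 0.0737, 0.0921 and 0.0746 on KCl arrays. Bicuculline arrays lay below all others, and KCl replicate 2 lay among the control arrays. Derl3 changed by -0.39 ± 0.09 under bicuculline (adjusted p = 0.00743) and by -0.16 ± 0.09 under KCl (adjusted p = 0.131, or 0.003 without KCl replicate 2). The KCl change of Derl3 passed as lower under 4 of the 5 other scalings (adjusted p up to 0.017), and was 0.66 with normexp and 75th percentile scaling (adjusted p = 0.32). Herpud1, a membrane scaffold of the HRD1 complex, and Os9, a lectin that selects substrates for it, rose by 0.27 ± 0.05 (adjusted p = 0.00141) and 0.19 ± 0.05 (adjusted p = 0.0141) under KCl. Under bicuculline their changes were 0.06 ± 0.05 and 0.01 ± 0.05, and neither passed. The KCl calls on Derl1, Derl2, Herpud1 and Os9 were lost under spike-in scaling, with adjusted p = 0.886, 0.717, 0.396 and 0.978.

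With 75th percentile scaling and the brightest probe, both genes of protein entry rose under both treatments, by small amounts. Sec61b, a subunit of the translocon pore, gave 0.12 ± 0.04 under bicuculline (adjusted p = 0.0349) and 0.38 ± 0.04 under KCl (adjusted p = 5.49e-05). Its bicuculline call was lost with the replicate block (adjusted p = 0.0609) and with slide as a block. It was also lost under every other scaling but quantile normalization, and without control replicate 1 or 3 or any 1 bicuculline replicate. The KCl call on Sec61b was lost with spike-in scaling (adjusted p = 0.077) and with normexp and 75th percentile scaling. Ssr1, a subunit of the translocon-associated protein complex, gave 0.14 ± 0.04 (adjusted p = 0.0246) and 0.16 ± 0.04 (adjusted p = 0.00592) on its brightest probe. The bicuculline call on Ssr1 was lost under 3 of 5 other scalings and without control replicate 1 or 3 or bicuculline replicate 1 or 2 (adjusted p up to 0.0833). Its KCl call was lost under all 5 other scalings, with a value of -0.02 under spike-in scaling. Other Ssr1 probes gave -0.22 to 0.13 under bicuculline and -1.16 to 0.11 under KCl. The mean of its probes was -0.023 and -0.23.

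KCl and bicuculline were then compared directly. KCl arrays were higher for 18 of 29 members, lower for 4, and 7 did not pass, where 36.1% of all genes were higher and 28.8% lower. The median log2 difference was 0.18 over the members and 0.07 over all genes. Differences of at least 0.5 were found for Ern1 (0.95 ± 0.34, adjusted p = 0.0375), Ero1l (0.70 ± 0.06, adjusted p = 2.83e-05) and Dnajb9 (0.53 ± 0.05, adjusted p = 4.51e-05), and no member was lower by as much, against 10.2% and 9.15% of all genes. The KCl arrays lay wholly above the bicuculline arrays for 18 members and wholly below for 5, against 39.6% and 30.4% of all genes. Hspa5 was higher by 0.44 ± 0.08 (adjusted p = 0.00143) and Atf6 by 0.38 ± 0.03 (adjusted p = 3.81e-05). Of the 18 higher calls only those on Dnajb9 and Ero1l passed under all 5 other scalings. The second Ero1l probe gave -0.0079. The members lower under KCl were Creld2 (-0.40 ± 0.04), Dnajc10 (-0.31 ± 0.05), Sel1l (-0.27 ± 0.03) and Sdf2l1 (-0.12 ± 0.04). Only the calls on Dnajc10 and Creld2 passed under all 5 other scalings, and the second Sel1l probe gave 0.49 and passed as higher. For Xbp1 the difference was 0.08 (95% interval 0.01 to 0.15, adjusted p = 0.0561), and for the brightest Edem1 probe -0.05 (-0.13 to 0.03, adjusted p = 0.221). Another Edem1 probe gave 0.69 and passed as higher. The call on Sdf2l1 was lost without any 1 of 4 treated arrays, namely replicates 1 and 3 of both treatments (adjusted p from 0.063 to 0.106). That on Ern1 was lost without any 1 of the KCl arrays or without bicuculline replicate 1 or 2 (adjusted p from 0.071 to 0.109), and with slide as a block its difference was 0.37 (adjusted p = 0.107).

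Probes of the same gene often disagreed. More than 1 kept probe was available for 15 members, and all carried the same RefSeq identifier within a gene. All probes moved in 1 direction for 8 of the 15 genes under bicuculline and for 8 under KCl. Probes that each passed, but in opposite directions, were found for Derl1 and Ssr1 under bicuculline, and for Sel1l, Edem1, Derl1, Derl2 and Ssr1 under KCl. Of these 5 genes, 4 belong to ER-associated degradation. Under KCl, 1 Ssr1 probe gave -1.16 and the second Derl2 probe -0.85, against 0.16 and 0.22 for the brightest probes. The 4 Derl1 probes gave -0.14, 0.11, 0.16 and 0.20 under bicuculline.

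Dnajb9, Dnajc3, Dnajc10, Calr, Canx and Hsp90b1 were among the 8 genes whose probes all moved 1 way under KCl. Dnajb9 probes gave 0.66, 1.18 and 0.61, and those of Dnajc3 0.45, 0.41, 0.21 and 0.81. Dnajc10 probes gave -0.43, -0.67, -0.48 and -0.66. For Calr the second probe gave 0.42, for Canx the others gave 0.28 and 0.20, and for Hsp90b1 the second probe gave 0.22 and passed (adjusted p = 0.00191) where the brightest did not. Pdia6 and Os9 were not among the 8. The other probes of Pdia6 gave -0.05 and -0.07 against 0.13 for the brightest, and the second Os9 probe gave -0.02 against 0.19. Which transcript forms the probes read was not tested.

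**Figure D3:**
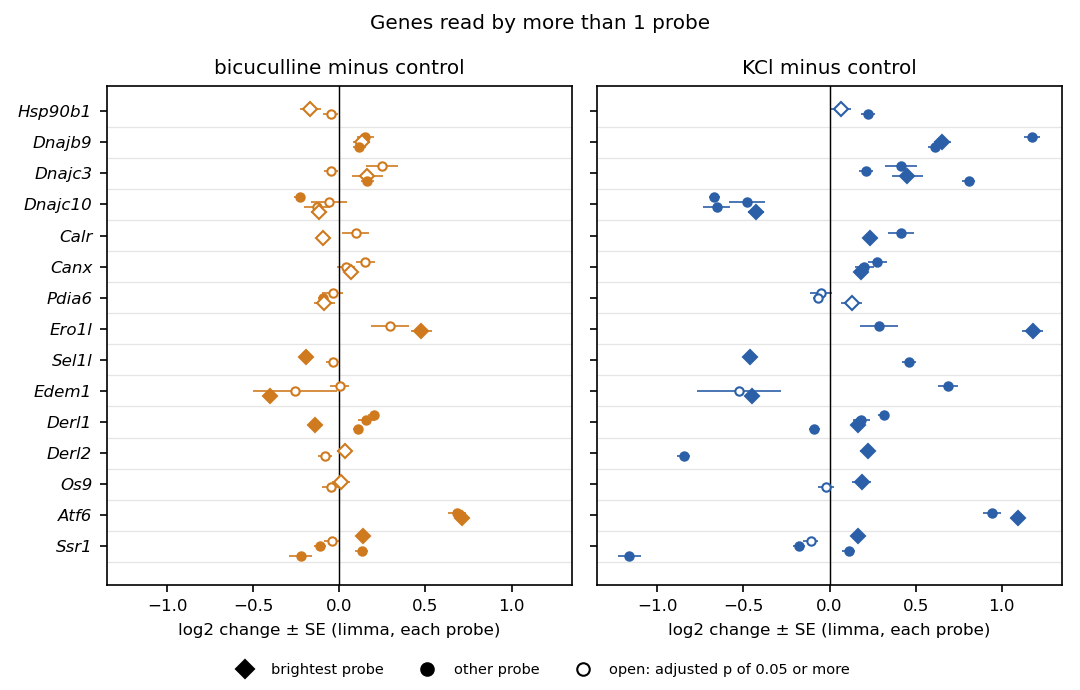
Log2 change (x axis, limma estimate ± SE) of every kept probe of the 15 members read by more than 1 probe, under bicuculline (left) and KCl (right). Diamonds are the brightest probe and circles the others, filled where the adjusted p was under 0.05. Under KCl, Sel1l, Edem1, Derl2 and Ssr1 have filled points on both sides of 0 that lie far apart.

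The members with and without the stress element in their promoter window were set beside each other as a description. Of all genes tested, 17.4% were higher and 27.0% lower under bicuculline, and 35.8% and 36.0% under KCl. Of the 10 tested members with an ERSE or ERSE-II, 1 was higher and 1 lower under bicuculline (median log2 change 0.01), and 5 were higher and 1 lower under KCl (median 0.16). Of the 15 with a window but neither element, 6 were higher and 2 lower under bicuculline (median 0.08), and 11 were higher and 3 lower under KCl (median 0.23). Of the 8 members that rose by at least 0.5 under KCl, Ero1l, Ern1, Sdf2l1, Eif2ak3, Xbp1 and Dnajb9 have neither element in the window, Hspa5 has an ERSE, and Atf6 has no entry. Outside the list, 38 genes had either element and 19 of them were tested. Under bicuculline 1 of these rose and 4 fell (median -0.13), and under KCl 4 rose and 8 fell (median 0.01).

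**Figure D4:**
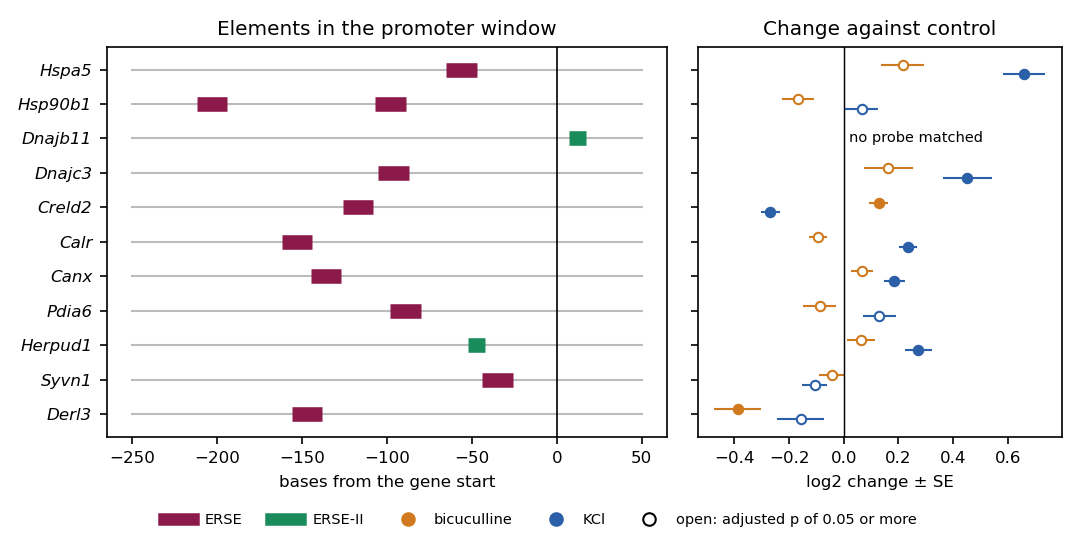
Left, position of the exact ERSE (purple) and ERSE-II (green) matches in the promoter window of 11 members, in bases from the gene start. Right, log2 change ± SE of these genes except Dnajb11, which matched no probe, under bicuculline (orange) and KCl (blue), filled where the adjusted p was under 0.05. Hspa5 and Dnajc3 lie farthest to the right under KCl, and Creld2, Derl3 and Syvn1 lie to the left of 0, although Derl3 was positive with normexp and 75th percentile scaling.

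Other genes of the same pathways were counted in 6 lists, beside the shares of all genes given above (17.4% higher and 27.0% lower under bicuculline, 35.8% and 36.0% under KCl). The list of PERK, ATF6 and IRE1 effectors had the highest medians of the 6. Of its 23 tested genes, 12 were higher and 1 lower under bicuculline (median 0.21), and 13 were higher and 4 lower under KCl (median 0.41). The list also holds genes that are not effectors of these sensors, such as the eIF2α kinase genes Eif2ak2 and Eif2ak4 and the sensor relatives Ern2 and Atf6b. Its counts are therefore not a reading of the 3 sensor pathways alone. Atf3, a stress transcription factor downstream of PERK that neuronal activity is also known to raise, read 0.287, 0.301 and 0.303 on control arrays, 1.69, 1.98 and 1.85 on bicuculline arrays, and 5.17, 5.65 and 6.01 on KCl arrays. The groups were far apart, with log2 changes of 2.63 (adjusted p = 1.56e-07) and 4.24 (adjusted p = 6.72e-09). Ppp1r15a (GADD34), which reverses eIF2α phosphorylation, rose by 0.58 (adjusted p = 0.00019) and 1.16 (adjusted p = 1.27e-06). Ern2, the IRE1 paralogue of mucosal epithelia, gave 0.37 (adjusted p = 0.514) and 1.34 (adjusted p = 0.0191). It was well above background on only 2 of 3 control and 2 of 3 bicuculline arrays. The gene thus passed the filter only through the KCl arrays, and its KCl call is not independent of that filter. The call is in the count of 13 and was lost without KCl replicate 1 or 2 (adjusted p up to 0.0583).

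Disulphide and oxidation enzymes other than the members counted 8 higher and 1 lower of 18 under bicuculline and 10 higher and 2 lower under KCl (44.4% and 5.56%, then 55.6% and 11.1%). Gpx8, an ER peroxidase, rose by 0.42 and 1.33. The selenoprotein Selenok rose by 0.18 and 0.66, and the thioredoxin-domain gene Txndc11 by 0.44 and 0.27. Of 22 other chaperones and J proteins, 5 rose and 3 fell under bicuculline, and 9 rose and 5 fell under KCl (22.7% and 13.6%, then 40.9% and 22.7%). The J protein genes Dnajc1 and Dnajb2 rose by 0.39 and 0.26 under bicuculline and by 0.64 and 0.51 under KCl. Dnajb14 changed by -0.36 and -0.35, although its KCl value reached 0.15 under another scaling.

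Of 31 translocon, signal peptidase and oligosaccharyltransferase genes, 6 rose and 3 fell under bicuculline and 13 rose and 4 fell under KCl (19.4% and 9.68%, then 41.9% and 12.9%). Srp14 and Srp9, which form the Alu domain of the signal recognition particle, rose by 0.44 and 0.28 under bicuculline and by 0.53 and 0.45 under KCl. The signal peptidase subunit Spcs3 rose by 0.29 and 0.27. Glycan trimming and calnexin cycle genes counted 5 higher and 3 lower of 14 under bicuculline and 4 higher and 7 lower under KCl (35.7% and 21.4%, then 28.6% and 50.0%), with a KCl median of -0.13. Man1a, a Golgi mannosidase, rose by 0.78 and 1.00 on the brightest probe, and further probes of the gene gave 0.40 to 0.77 and -0.11 to 1.48. Edem3, a relative of Edem1, rose by 0.41 under bicuculline and gave 0.20 under KCl (adjusted p = 0.0523). Ngly1, which strips glycans from chains that have left the ER, changed by -0.18 and -0.78.

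Of 26 other degradation genes, 7 rose and 6 fell under bicuculline and 8 rose and 8 fell under KCl. These shares, 26.9% and 23.1%, then 30.8% and 30.8%, lay near those of all genes. The ubiquitin-conjugating enzymes Ube2g2 and Ube2j1 rose by 0.57 and 0.50 under bicuculline and by 0.82 and 1.48 under KCl. Marchf6, an ER membrane ligase, rose by 0.35 and 1.28. Their other probes did not all follow. The second Ube2j1 probe gave 0.04 and 0.15, and the other Marchf6 probes gave -0.15 to 0.32 and -0.16 to 0.98. Of the 17 calls on these named genes under bicuculline, those on Man1a, Ube2g2, Ube2j1, Atf3 and Ppp1r15a passed under all 5 other scalings, and of the 17 under KCl those on Dnajc1, Dnajb2, Gpx8, Man1a, Ngly1, Ube2g2, Ube2j1, Marchf6, Atf3 and Ppp1r15a did. The bicuculline calls on Selenok and Ngly1 were lost without any 1 of 6 and 3 arrays (adjusted p up to 0.118 and 0.0811).

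The counts of members depend on how the arrays are brought to 1 scale. Against the split of 19 higher and 4 lower under KCl (82.6% of calls higher), quantile normalization gave 15 and 8 (65.2%), median scaling 10 and 8 (55.6%), spike-in scaling 8 and 6 (57.1%), normexp with 75th percentile scaling 6 and 4 (60.0%) and normexp with quantile normalization 14 and 8 (63.6%). Under bicuculline the split of 9 and 4 (69.2%) became 10 and 5, 5 and 3 (62.5%), 5 and 3, 4 and 1 (80.0%) and 8 and 5 (61.5%) in the same order. For KCl against bicuculline the split of 18 and 4 (81.8%) became 12 and 5 (70.6%), 7 and 5 (58.3%), 4 and 4 (50.0%), 2 and 2 (50.0%) and 10 and 6 (62.5%). The share of calls that were higher over all genes moved as well. In the same order of settings, starting with the 75th percentile, it was 49.9%, 40.2%, 31.8%, 28.9%, 44.2% and 40.5% under KCl. It was 39.2%, 39.9%, 32.9%, 31.5%, 58.7% and 41.1% under bicuculline, and 55.6%, 43.0%, 33.9%, 32.8%, 45.2% and 43.7% for KCl against bicuculline. The median of all genes under KCl was 0.02 with the 75th percentile, -0.14 with median scaling and -0.16 with spike-in scaling. Relative to the median of all genes, the members' median under KCl was 0.16 higher with the 75th percentile, median and spike-in settings. Those settings shift all genes of an array by the same amount, so they must give nearly the same difference, and their agreement is no check. The difference was also 0.16 with quantile normalization. It was 0.15 with normexp and quantile normalization and -0.04 with normexp and 75th percentile scaling.

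Calls that passed in the same direction under all 5 other scalings were, under bicuculline, those on Sdf2l1, Ero1l, Eif2ak3 and Atf6 (4 of 9 higher) and Edem1 (1 of 4 lower). Under KCl they were those on Dnajb9, Sdf2l1, Ero1l, Eif2ak3, Atf6 and Xbp1 (6 of 19 higher) and all 4 lower calls, on Dnajc10, Creld2, Sel1l and Edem1. In the direct comparison they were those on Dnajb9 and Ero1l (2 of 18 higher) and on Dnajc10 and Creld2 (2 of 4 lower). All these calls are on the brightest probe. Under KCl another probe passed as higher for Sel1l (0.46) and for Edem1 (0.69). With the mean of probes the KCl calls on Sel1l and Edem1 did not pass (limma, adjusted p = 0.942 and 0.314). Nor did the bicuculline call on Edem1 (adjusted p = 0.065).

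**Figure D5:**
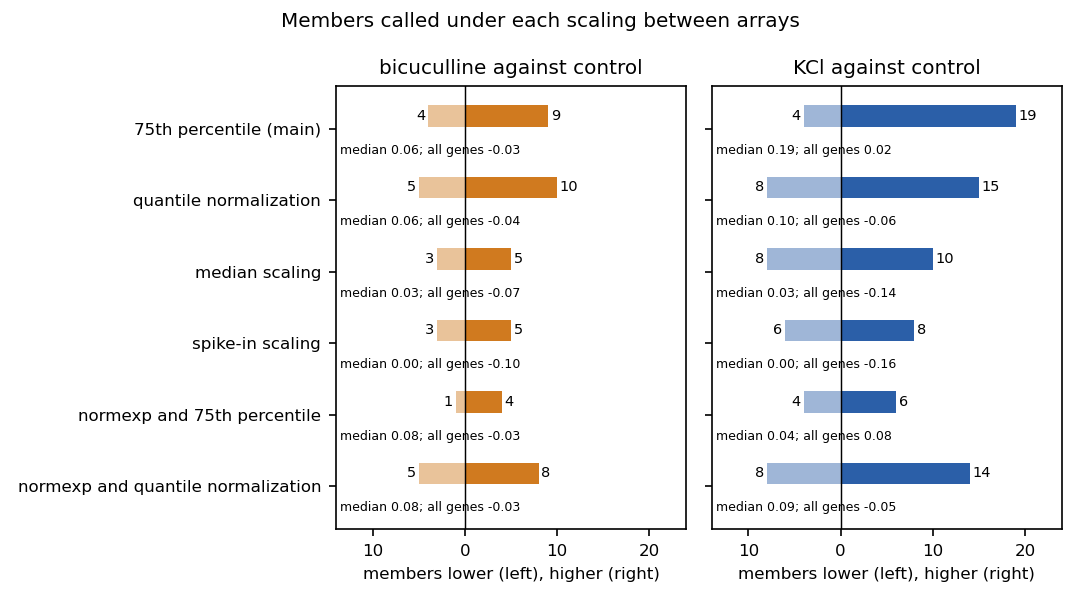
Members called lower (pale, to the left of 0) and higher (to the right) of 29, under the 75th percentile and 5 other scalings, for bicuculline (left) and KCl (right), with the median log2 change of the members and of all genes printed under each bar. The count of higher members under KCl runs from 6 to 19, and that under bicuculline from 4 to 10.

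Slides held the groups unevenly. Slide 1 held control 1 and 2 with bicuculline 1 and 2, slide 2 held KCl 1 and 2 with control 3 and bicuculline 3, and slide 3 held KCl 3 alone. The members' median change under bicuculline was 0.10 within slide 1 (2 arrays against 2) and 0.04 within slide 2 (1 against 1). Within slide 2 that under KCl was 0.18 (2 against 1). Within slide 2, KCl changed Atf6 by 1.12, Ero1l by 1.24, Sdf2l1 by 0.84, Hspa5 by 0.73 and Eif2ak3 by 0.65, and Edem1 and Sel1l by -0.39 and -0.45. These within-slide values come from arrays that are also in the full comparison.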

How the data were processed

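The samples were 9 arrays in 3 groups of 3, read by 1-colour (Cy3) hybridisation of 100 ng RNA per the labels' protocols. The labels also say that RNA was extracted with Trizol from 100 mg of tissue. Spot intensity in the deposited scanner files was the background-subtracted, processed signal. The software was Agilent Feature Extraction, which the file headers give as version 10.7.3.1 and the submitters' processing notes as 10.5.1.1. The log2 values analysed here came from that deposited intensity. The series value table held the same intensity, equal for all 45018 features of each array.

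Control spots were left out. Each array was scaled to the 75th percentile of its 43379 other spots, and log2 was taken. Outlier spots were then left out and the remaining spots of a probe averaged, which left 39 values empty among the genes tested. A probe was kept if it was well above background on all arrays of at least 1 group and measured on at least 2 arrays of each. The brightest kept probe stood for a gene. Of 41174 probes, 26888 were named through RefSeq accessions (18327 genes), and 14063 genes were tested in 1 fit of all 9 arrays with limma 3.58.1 (R 4.3.3), and p-values were adjusted by Benjamini-Hochberg for each of the 3 comparisons separately. Adjusted p-values of single probes were adjusted over all kept named probes. The script was checked on simulated data. The number of arrays limits the precision.

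The members, roles, pathway lists and markers were chosen with earlier results of these data known. All members are named. From each pathway list, the 2 genes with the largest change among those that passed are named for each treatment. Full values per array are given for members that passed and changed by at least 0.5 on the log2 scale, and for a few others chosen after their values were seen (Edem1, Sel1l, Dnajc10, Creld2, Derl3).

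Replicate numbers from the labels were checked as pairs. Deviations of same-numbered control and bicuculline arrays from their group means correlated at 0.40, 0.26 and 0.74, each over 0.1. In both groups replicates 1 and 2 were on slide 1 and replicate 3 on slide 2. The check therefore cannot tell pairing by number from a shared slide. For KCl and control the correlations were -0.19, -0.15 and -0.57, and for KCl and bicuculline -0.09, -0.19 and -0.57. No pairing by number was seen for the KCl arrays. The alternatives were 5 other scalings or background corrections (normexp used the median spot and local background signals, with an offset of 50, and spike-in scaling used 320 control spots), other filters, prior, probes and blocks, and each array left out in turn.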

Additional observations from a re-analysis of the deposited data

How the results depend on the processing

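Values for the members, in the order members higher, members lower and median log2 change, moved as follows. Under bicuculline, members higher were 9, and 5 with median scaling, 5 with spike-in scaling and 4 with normexp and 75th percentile scaling. Members lower were 4, and 1 with normexp and 75th percentile scaling and 7 with a trended and robust prior. The members' median was 0.06, and 0.027, -0.0016, 0.084 and 0.082 with median scaling, spike-in scaling and both normexp settings. Under KCl, members higher were 19, and 10, 8 and 6 with median scaling, spike-in scaling and normexp with 75th percentile scaling. Members lower were 4, and 8 with quantile normalization, median scaling and normexp with quantile normalization. The members' median was 0.19, and 0.10, 0.026, 0.0041, 0.037 and 0.095 with quantile, median, spike-in, normexp and 75th percentile, and normexp and quantile settings, 0.21 with slide as a block and 0.14 with the mean of probes. For KCl against bicuculline, members higher were 18, and 7, 4, 2 and 10 with median, spike-in, normexp and 75th percentile, and normexp and quantile settings, and 11 with slide as a block. Members lower were 4, and 2 with normexp and 75th percentile scaling. The members' median was 0.18, and 0.048, 0.052, 0.059, 0.018, 0.062 and 0.12 with quantile, median, spike-in, both normexp settings and the mean of probes. The cause was not tested.

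With 1 array left out, members higher ranged from 6 (without control replicate 3) to 10 and members lower from 3 to 7 (without bicuculline replicate 1) under bicuculline, with medians of 0.039 (without control replicate 1) to 0.075. Under KCl they ranged from 17 to 19 and from 4 to 5, with medians of 0.19 to 0.21, and for KCl against bicuculline from 14 to 18 and from 3 to 4, with medians of 0.16 to 0.20.

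With the replicate block in all 9 arrays, members higher were 8, 18 and 17 and members lower 4, 4 and 3 under bicuculline, under KCl and for KCl against bicuculline. In the comparison of bicuculline with control it changed no call but that on Sec61b (adjusted p = 0.0609), and within 6 arrays also those on Hspa5 and Dnajb9. The KCl arrays share only a number with the others.

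Directions turned for single genes. Under bicuculline, other probes gave 0.0021 for Edem1, 0.20, 0.16 and 0.11 for Derl1 and -0.043, -0.11 and -0.22 for Ssr1, and the mean of probes 0.082 for Derl1 and -0.023 for Ssr1. Under KCl, Hyou1 was -0.066, -0.088 and -0.052 with median, spike-in and normexp with 75th percentile scaling, Hsp90b1 -0.18 with quantile normalization and -0.078 or lower with each other scaling, Pdia6 -0.11 to -0.030 over the 5 other scalings, Derl3 0.66 with normexp and 75th percentile scaling, Canx -0.062, -0.078 and -0.11 with quantile and both normexp settings, and Derl1 and Ssr1 -0.016 and -0.017 with spike-in scaling. Other probes gave 0.46 for Sel1l, 0.69 for Edem1, -0.088 for Derl1, -0.85 for Derl2, -0.022 for Os9 and -0.11, -0.18 and -1.16 for Ssr1, and the mean of probes -0.31 for Derl2 and -0.23 for Ssr1. For KCl against bicuculline, Canx was -0.085, -0.0056, -0.16 and -0.17 with quantile, median and both normexp settings, and P4hb -0.045 and Os9 -0.038 with normexp and 75th percentile scaling. Other probes gave -0.0080 for Pdia6, -0.0079 for Ero1l, 0.49 for Sel1l, 0.69 for Edem1, -0.20 for Derl1, -0.76 for Derl2 and -0.94 for Ssr1, and the mean of probes 0.11, -0.29 and -0.21 for Sel1l, Derl2 and Ssr1. Values that had not passed also changed sign under at least 1 scaling for Herpud1, Derl2, Os9 and Ern1 under bicuculline and for Manf, Pdia4, Xbp1 and Ssr1 in KCl against bicuculline. Signal over background limits Ern1 and Derl3, the dimmest members.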
